A study of Microcebus murinus with 18 samples.

Results

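Neurexins and neuroligins are the genes of a pair of synaptic adhesion families, and 6 of them, NRXN2, NRXN3, NLGN1, NLGN2, NLGN3 and NLGN4X, were followed here in the temporal cortex of the grey mouse lemur (Microcebus murinus), a small primate. Every probe set of the human HG-U133 Plus 2.0 array that the platform annotation gives to 1 of these symbols was taken, which made 15 probe sets for 6 of the 19775 genes annotated. None of the 15 was shared with another symbol. A probe set is a group of short probes for 1 transcript, and it was named by its identifier because the probe sets of 1 gene can read different transcripts. The set was put together because NRXN2 had stood out in the comparison of AD-like with old animals, so the values of these 6 genes in that comparison are given as a description with no test. Their old against young adult and male against female differences were tested, and the genes of their partners were tested in AD-like against old animals too.

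RNA had been prepared from the right hemisphere of each animal and hybridized to 1 array per animal, 18 in all. The young adult group held 6 animals, of which 2 were males, the old group held 10 healthy animals, of which 3 were males, and the AD-like group held 2 old females. AD-like stands for the β-amyloid plaques and cortical atrophy that the study found in the brains of these females, which had arisen with age in a captive colony and carried no engineered allele. No animal had been given a treatment. The signals had been scaled by the authors to a trimmed mean of 100 on each array, and the array medians ranged from 30.7 to 54.4. Of 54613 probe sets, 27.3% were kept by a rule blind to the groups (the highest third-highest signal), and 9 of the 15 neurexin and neuroligin probe sets were among them, for 5 of the 6 genes. The kept probe set closest to the limit of 147.5 was NRXN2 209983_s_at, with a third-highest signal of 186, and the closest one left out was NLGN1 231361_at, with 134. Lemur RNA met human probes here, so a signal also depends on how well the probes match, and levels were compared only between animals and never between probe sets. The arrays of AD-like F2, old M1 and M2 and young adult M2, 4 in all, gave almost no signal for the poly-A control RNA that the other 14 arrays carried. Of the cell type markers, 8 of 9 neuron, 5 of 5 annotated excitatory neuron, 5 of 6 interneuron, 5 of 7 astrocyte and 6 of 7 oligodendrocyte genes were kept, but only 1 of 9 microglia genes was.

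Neurexins are proteins of the presynaptic membrane with a large extracellular part and a short tail that binds scaffold proteins. Each gene has alternative promoters and many splice forms. Neuroligins are their best known partners on the postsynaptic side, where NLGN1 is found mostly at excitatory synapses, NLGN2 at inhibitory synapses, NLGN3 at both, and NLGN4X is a member that differs much between mammals; NLGN3 and NLGN4X are both X-linked in humans. Through its tail a neuroligin holds postsynaptic scaffolds in place, and both families have been tied to autism and other disorders of synapses.

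NRXN2 209982_s_at was read above the array median on all 18 arrays. Its signal was 593 at the lowest, 982 at the median and 1386 at the highest in the 6 young adults, and 714, 1082 and 1677 in the 10 old animals. AD-like F1 gave 623 and AD-like F2 gave 249. Both AD-like signals thus lay below those of all 10 old animals, while young adult M1 lay below AD-like F1. The mean signal was 953 ± 287 for young adults (SD, n = 6), 1131 ± 313 for old animals (SD, n = 10) and 436 ± 264 for AD-like animals (SD, n = 2). On the scale of log2(signal + 16) the AD-like mean was lower than the old mean by a log2 difference of -1.43 (SE 0.38), which is 2.70 times. AD-like F2 carried much of it, since the difference was -0.80 without that animal and -2.06 without AD-like F1. It was -0.90 within the 14 arrays with poly-A control RNA, which hold AD-like F1 alone, and -1.28 with the presence of this RNA as a block. Both AD-like animals were female while 3 old animals were male, and with females only the difference was -1.61. In RNA from a piece of tissue, fewer cells of a type and less RNA per cell cannot be told apart.

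NRXN2 209983_s_at, the other probe set of the gene, fell into high and low animals in a way the groups did not follow. Its signal was at most 19.3 in young adult F1, F2 and M2, in old F1, F2 and F3 and in both AD-like animals, where it was 11.1 and 17.9. The other 10 animals gave between 59.6 and 195. It passed the filter on the signals of the high animals, and its AD-like minus old log2 difference of -1.63 (SE 0.79) compares 2 low animals with a group that held 3 low and 7 high ones. With the label number as a block this difference was -0.11, but the numbers were not taken to pair animals. The F1 and F2 animals were low in every group, so such a block brings the difference near 0 by the numbering alone. Nothing is read from that value. Over the 18 animals the pair of NRXN2 probe sets was not found to move together: after the group means were subtracted their correlation was r = -0.293 (rho = -0.280, permutation p = 0.237 and 0.261, adjusted over 36 pairs 0.449 and 0.521). The old animal with the highest 209982_s_at signal, F5, had a 209983_s_at signal of 148, and old F7, next to it at 1572, had 59.6.

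NRXN3, the paralog, was read by 3 kept probe sets that did not give 1 picture. The signal of 229649_at was 546, 862 and 950 (lowest, median and highest) in young adults and 566, 915 and 1618 in old animals, with 951 and 842 in AD-like F1 and F2. The AD-like animals lay inside the range of the old ones, with a log2 difference of 0.03 (SE 0.36). This differs from NRXN2 209982_s_at, whose AD-like signals were both outside the old range.

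For NRXN3 215020_at the signals were 363, 663 and 1823 in young adults and 232, 851 and 1545 in old animals, and AD-like F1 and F2 gave 683 and 141. For NRXN3 215021_s_at they were 205, 377 and 1089 in young adults and 257, 696 and 1210 in old animals, with 477 and 176 in AD-like F1 and F2. In both probe sets AD-like F2 was the lowest of all 18 animals, while AD-like F1 sat among the old ones. The log2 differences of AD-like minus old animals were -1.23 (SE 0.63) and -1.10 (SE 0.60). Without AD-like F2 they shrank to -0.15 and -0.42, and without AD-like F1 they were -2.31 and -1.78. Of the other arrays without poly-A control RNA, young adult M2 at 363 and old M2 at 232 were the lowest of their groups for 215020_at, while old M1 was at 624. For 215021_s_at old M2, at 257, was the lowest of its group, but young adult M2 at 283 and old M1 at 619 were not. With poly-A RNA as a block the AD-like minus old differences were -0.81 and -0.84. Signals of 215020_at also followed the 3' to 5' ratio of beta-actin (r = -0.75 over the 18 animals) and the array median (r = -0.688), given as a description. The part of the array set in these values was not tested. The last NRXN3 probe set, 205795_at, was not kept: it gave 72.6 in AD-like F2, 57.7 in old M3 and 42.1 in old F6, and at most 16.99 in the other 15 animals.

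**Figure D1:**
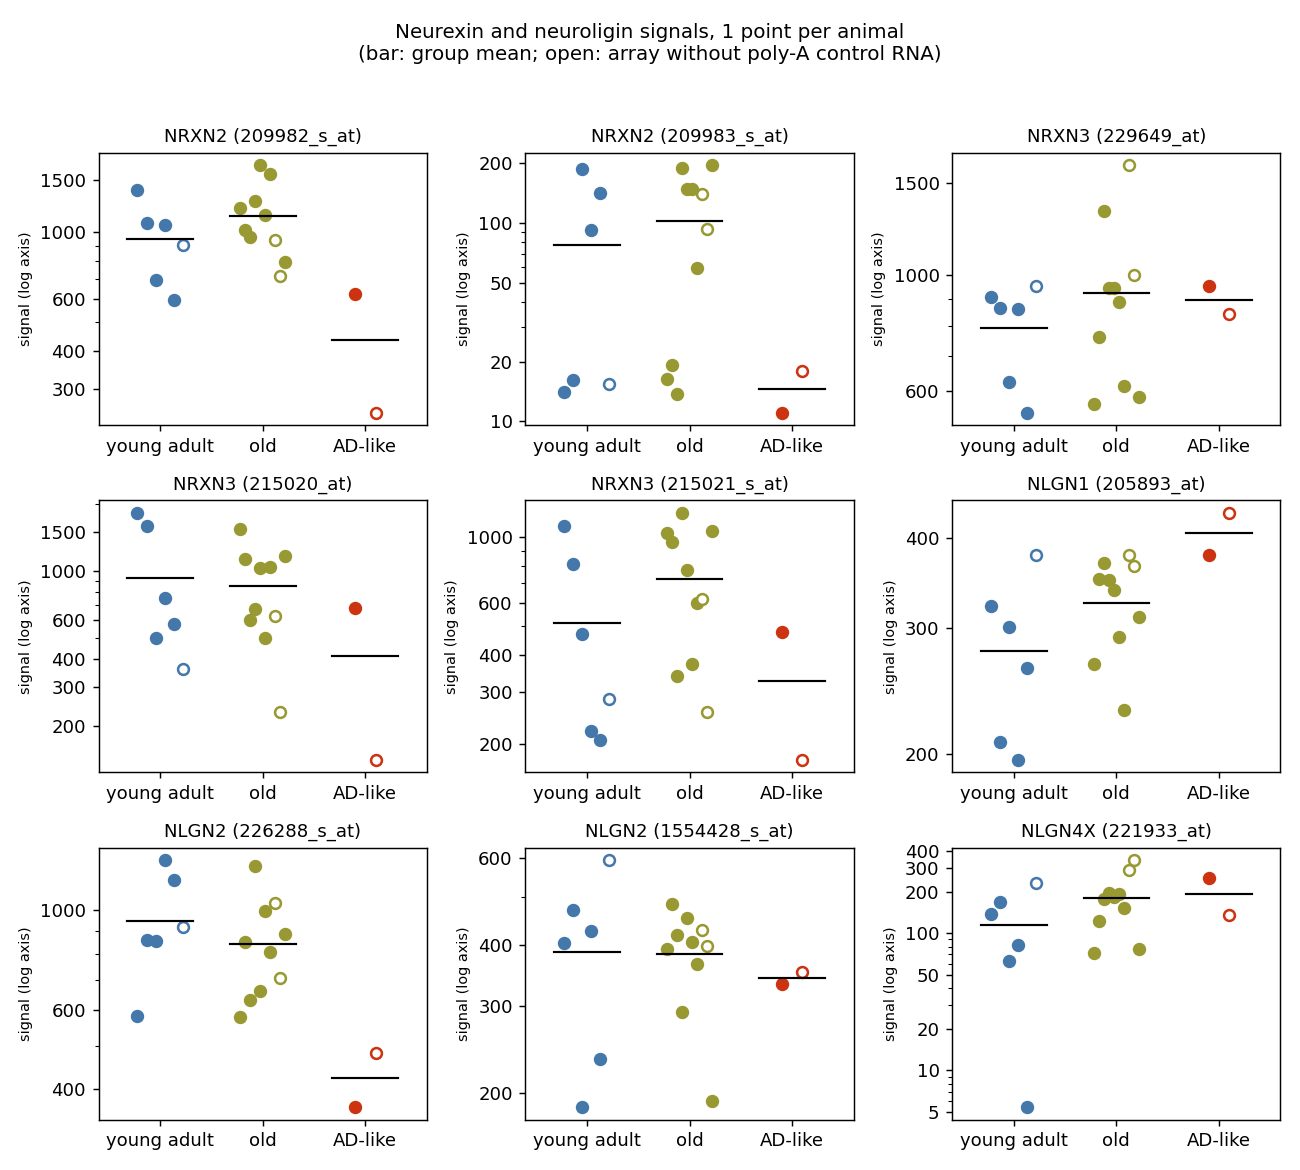
Signals of the 9 kept probe sets (log axes, scaled by the authors to a trimmed mean of 100 per array) in young adult, old and AD-like animals. Each point is 1 animal, black bars are group means, and open points are the 4 arrays without poly-A control RNA. Both AD-like animals lie below all old animals for NRXN2 209982_s_at and NLGN2 226288_s_at and above them for NLGN1 205893_at.

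NLGN1, the neuroligin of excitatory synapses, was read by 205893_at with little spread. Its signal was 196, 282 and 379 (lowest, median and highest) in young adults and 230, 344 and 378 in old animals. AD-like F1 gave 378.84 and AD-like F2 gave 434. These were above all 10 old and all 6 young adult animals, though AD-like F1 passed the highest old animal, at 378.4, and the highest young adult, at 378.79, by less than 1 unit. Of all kept probe sets 1.43% had both AD-like signals above all 10 old ones, and the share above the young adults as well was not computed. The log2 difference of AD-like minus old animals was 0.32 (SE 0.29). The other NLGN1 probe set, 231361_at, was not kept, and its AD-like signals of 90.7 and 80.4 lay within the old range of 29.7 to 167.

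NLGN2, the neuroligin of inhibitory synapses, was lower in both AD-like animals by 1 of its probe sets. For 226288_s_at the signals were 581, 888 and 1294 in young adults and 578, 828.98 and 1254 in old animals, against 364 in AD-like F1 and 482 in AD-like F2. Both AD-like animals lay below all 16 others. Of all kept probe sets 1.62% had both AD-like signals below all 10 old ones, and the share below all 16 was not computed. The mean signal was 946 ± 253 for young adults (SD, n = 6), 841 ± 211 for old animals (SD, n = 10) and 423 ± 83.1 for AD-like animals (SD, n = 2), and the log2 difference of AD-like minus old animals was -0.94 (SE 0.33), which is 1.92 times lower. Each AD-like animal showed it: the difference was -1.13 without F2 and -0.75 without F1, each with 1 AD-like animal, and -0.97 with poly-A control RNA as a block. For NLGN2 1554428_s_at the AD-like signals of 332 and 352 lay within the old range of 193 to 484, and the log2 difference was -0.12 (SE 0.38). The kept NLGN2 probe sets were not found to move together over animals either (r = -0.205, rho = -0.146, permutation p = 0.415 and 0.563, adjusted over 36 pairs 0.663 and 0.780). The last NLGN2 probe set, 235838_at, was below the array median on all 18 arrays and was not kept, with signals between 7.08 and 43.4.

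NLGN3, present at both kinds of synapses, had no kept probe set. The signals of 219726_at were 61.1, 95.5 and 128 (lowest, median and highest) in young adults, 11.6, 66.2 and 98.2 in old animals, and 53.0 and 167 in AD-like F1 and F2. Only 1 of 10 old animals was above the young adult median, and the log2 difference of old minus young adult animals was -0.56 (SE 0.31, limma with no filter, p = 0.087, adjusted p = 0.946). The other NLGN3 probe set, 234751_s_at, was between 16.6 and 190, with 28.8 and 24.0 in the AD-like animals.

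NLGN4X was read by 221933_at above the array median on 17 of 18 arrays. Its signal was 5.38, 110 and 231 in young adults and 71.5, 181 and 341 in old animals, with 253 and 135 in AD-like F1 and F2. Young adult M1, at 5.38, stood far below every other animal, since the next lowest signal of the 18 was 62.9. The AD-like animals lay inside the old range, and the log2 difference was 0.17 (SE 0.64). Its sign depended on 1 animal, with -0.25 without AD-like F1 and 0.58 without AD-like F2, and it was -0.10 with poly-A control RNA as a block. The other NLGN4X probe set, 1554689_a_at, was not kept and ranged from 6.16 to 114.

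Set side by side, the AD-like mean was below the old mean in 6 of the 9 kept probe sets and above it in 3. Their median log2 difference was -0.94, against -0.02 over all kept probe sets. Both AD-like signals were below all 10 old signals in 2 of the 9 (NRXN2 209982_s_at and NLGN2 226288_s_at), and 1.62% of all kept probe sets had this pattern. Both were above in 1 of the 9 (NLGN1 205893_at), a pattern of 1.43% of all. As NRXN2 led to the choice of the genes, nothing is read from these counts. Of all kept probe sets, 0.999% had a lower AD-like minus old difference than NRXN2 209982_s_at, 0.516% than NRXN2 209983_s_at, 1.87% than NRXN3 215020_at, 2.95% than NRXN3 215021_s_at and 4.86% than NLGN2 226288_s_at. The remaining 4 lay between 42.0% and 76.2%. Centring each array on its median instead moved the difference of the median probe set to -0.19, and NRXN2 209982_s_at and NLGN2 226288_s_at were then at -1.60 and -1.10, while NRXN3 229649_at turned to -0.13.

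The differences of AD-like minus young adult animals, which share the AD-like arrays, were -1.18 for both NRXN2 probe sets, 0.20, -1.27 and -0.51 for NRXN3 229649_at, 215020_at and 215021_s_at, 0.55 for NLGN1 205893_at, -1.10 and -0.07 for NLGN2 226288_s_at and 1554428_s_at, and 0.97 for NLGN4X 221933_at on the log2 scale. Without AD-like F2 they were -0.55 for NRXN2 209982_s_at, -0.19 for NRXN3 215020_at and 0.17 for NRXN3 215021_s_at, so AD-like F2 set the sign of the last. With the label number as a block NRXN2 209983_s_at was at -0.0834. The F1 and F2 animals were low in every group for this probe set, so nothing is read from that value.

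Cell type markers and RNA quality ratios of the same arrays stand beside these differences. The summed signal of the 8 neuron markers was 26918 and 58769 in the AD-like animals and between 38010 and 71743 in the old ones (20686 to 72461 in young adults), so 1 AD-like animal was below the old range. The 5 excitatory neuron markers summed to 6443 and 7741 against 4929 to 12857 in old animals, the 5 astrocyte markers to 8277 and 9654 against 6410 to 15833, and the 6 oligodendrocyte markers to 1040 and 1167 against 781 to 1359, all inside the old range. The 5 interneuron markers summed to 3076 and 3857 against 3391 to 5179. The 1 kept microglia marker was at 115 and 175 against 71.8 to 162, and the 3 kept endothelial markers summed to 503 and 536 against 418 to 906. A sum follows its brightest genes. Gene by gene, the AD-like mean was below the old mean in 5 of 8 neuron, 4 of 5 excitatory neuron and 5 of 5 interneuron markers. It was below in 2 of 5 astrocyte, 2 of 6 oligodendrocyte and 3 of 3 endothelial markers. The median log2 difference was -0.15 for the interneuron and 0.49 for the astrocyte markers. The log2 3' to 5' ratio of beta-actin was -1.48 ± 1.44 for AD-like (SD, n = 2), -1.92 ± 1.04 for old (SD, n = 10) and -2.38 ± 0.54 for young adult animals (SD, n = 6), and that of GAPDH was 0.47 ± 0.20, 0.59 ± 0.53 and 0.31 ± 0.20 in the same order. Their part in the differences above was not tested.

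**Figure D2:**
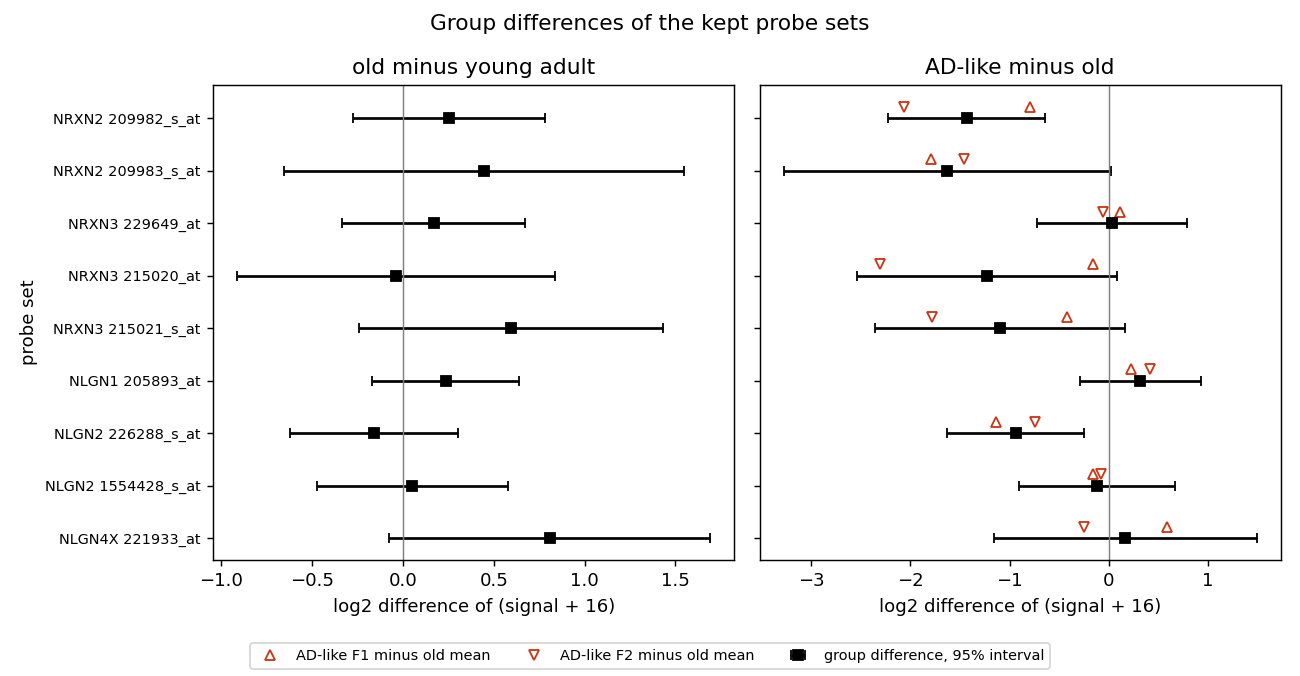
Log2 differences of (signal + 16) for the 9 kept probe sets, old minus young adult on the left and AD-like minus old on the right. Squares are group differences with 95% intervals from limma, and triangles give each AD-like animal minus the old mean. The 9 intervals of old minus young adult span 0, and the AD-like animals lie far apart for NRXN2 209982_s_at and for NRXN3 215020_at and 215021_s_at.

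The genes had been chosen by the AD-like minus old difference of NRXN2, and not by the difference between old and young adult animals. The arrays of the old animals enter both comparisons, however. A high old mean of NRXN2 would favour that choice and a positive old minus young adult difference alike. For NRXN2, which was selected on values that include the old arrays, the test of healthy aging is therefore not independent of the choice. None of the 9 kept probe sets passed in old against young adult animals: 0 had an adjusted p under 0.05 in limma, where the same held for 0.0% of all kept probe sets, and 0 had an unadjusted p under 0.05, where 5.92% of all did. The methods' t-test on linear signals gave 0 after adjustment too. The old mean was above the young adult mean in 7 and below it in 2, with a median log2 difference of 0.23 against 0.03 over all, and with each array centred on its median NRXN3 215020_at turned from -0.04 to 0.0456, where the median of all moved to 0.12.

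NLGN4X 221933_at had the largest difference, 0.81 (SE 0.42, limma p = 0.0712, adjusted p = 0.849). Its mean signal was 180 ± 85.1 for old animals (SD, n = 10) and 115 ± 80.9 for young adults (SD, n = 6). Without young adult M1 the difference was 0.36, and 8 of 10 old animals were above the young adult median. NRXN3 215021_s_at was next with 0.59 (SE 0.40, limma adjusted p = 0.866), while NRXN3 215020_at was at -0.04 (SE 0.42). For NRXN2 the differences were 0.25 (SE 0.25, limma adjusted p = 0.907) for 209982_s_at and 0.45 (SE 0.53) for 209983_s_at. The 95% interval for NRXN2 209982_s_at ran from -0.28 to 0.78. NLGN1 205893_at had 0.23 (SE 0.19) with an interval from -0.17 to 0.64, and 8 of 10 old animals were above the young adult median. NLGN2 226288_s_at was at -0.16 (SE 0.22), with 3 of 10 old animals above the young adult median. NRXN3 229649_at was at 0.17 (SE 0.24) and NLGN2 1554428_s_at at 0.05 (SE 0.25). The number of animals limits the precision, and none of these intervals excluded 0.

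Of the 9 kept probe sets, NRXN2 209982_s_at set the sexes furthest apart in relation to its spread. In old animals the signals of 209982_s_at were 946, 714 and 794 in the 3 males and 965 at the lowest, 1208 at the median and 1677 at the highest in the 7 females, so the sexes did not overlap. All 3 old males were below all 7 old females in 1 of the 9 kept probe sets and above them in 0, and this held for 5.40% and 3.34% of all kept probe sets. In young adults the 2 males gave 593 and 908 and the 4 females 1386, 1079, 695 and 1055, which overlap. With the groups in the model the male minus female log2 difference was -0.55 (SE 0.23, limma p = 0.0281, adjusted p = 0.122). The other NRXN2 probe set, 209983_s_at, went the other way, at 0.64 (SE 0.55, limma adjusted p = 0.457). Centring each array on its median gave -0.83 for 209982_s_at (limma adjusted p = 0.0305), a scaling that moved the median of all probe sets to -0.32. With it 18.2% of all kept probe sets had an adjusted p under 0.05.

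None of the 9 kept probe sets differed between males and females after adjustment in limma, whereas 10.2% of all kept probe sets did. At an unadjusted p under 0.05 it was 1 of 9, against 28.9% of all. Of the 5 males, 3 were on arrays without poly-A control RNA and only 1 of the 13 females was, and with this RNA as a block the calls over all probe sets dropped from 1524 to 7. They dropped to 9 with the beta-actin 3' to 5' ratio as a covariate, to 67 without old M2 and to 313 without old M1, or 0.449% and 2.10% of the kept probe sets. Sex and array set can therefore hardly be told apart. Within the block the difference of NRXN2 209982_s_at was -0.44 (limma adjusted p = 0.485). NRXN3 215020_at went from -0.83 (limma adjusted p = 0.185) to 0.02 with the block. NLGN4X 221933_at was at -0.06 (SE 0.45, limma adjusted p = 0.947), and within the 14 arrays, with 2 males, at -1.64 (limma adjusted p = 0.129), the 2 males being young adult M1 at 5.38 and old M3 at 76.1. The difference of old minus young adult animals was not found to depend on sex for any kept member (limma interaction, adjusted p = 0.998 for all 9), a test that rests on 2 young adult males.

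Animals of 1 group differed from each other, and some probe sets followed each other across them. Of 36 pairs of kept probe sets, 5 had a correlation with an adjusted permutation p under 0.05, computed over 18 animals after the group means were subtracted. The permutations exchanged all 18 animals freely although group means had been removed, so these p may be somewhat too small. The share of such pairs among all kept probe sets was not computed, so nothing particular to these genes is read from this count. The strongest was within NRXN3, between 215020_at and 215021_s_at (r = 0.810, rho = 0.767, permutation p = 0.00013 and 0.00038, adjusted p = 0.00468 and 0.00684). It was 0.724 without the 2 animals farthest from the median, 0.750 within the 14 arrays and 0.793 without the AD-like animals. The signals of these probe sets had r = -0.688 and -0.587 with the array median over the 18 animals, given as a description. The third NRXN3 probe set, 229649_at, went its own way, with r = -0.237 against 215020_at (rho = -0.195, permutation p = 0.344 and 0.434, adjusted p = 0.590 and 0.675) and r = -0.162 against 215021_s_at (rho = -0.125, permutation p = 0.522 and 0.621, adjusted p = 0.751 and 0.781).

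Between genes, NRXN2 209982_s_at followed NRXN3 215020_at (r = 0.680, rho = 0.682, permutation p = 0.00215 and 0.00246, adjusted p = 0.0195 and 0.0295). The correlation was 0.636 without the 2 animals farthest from the median, 0.568 within the 14 arrays and 0.590 without the AD-like animals, whose deviations from a mean of 2 mirror each other. Both probe sets also ran against the array median over the 18 animals, with r = -0.561 and -0.688 as a description. NRXN3 229649_at followed NLGN4X 221933_at (r = 0.735, rho = 0.814, permutation p = 0.00052 and 1e-04, adjusted p = 0.00936 and 0.0036), with 0.720 without the 2 farthest animals, 0.723 within the 14 arrays and 0.735 without the AD-like animals.

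The other pairs past the threshold were NLGN2 1554428_s_at with NLGN4X 221933_at (r = 0.625, rho = 0.517, permutation p = 0.00662 and 0.0289, adjusted p = 0.0477 and 0.115) and NRXN2 209983_s_at with NLGN2 1554428_s_at (r = -0.658, rho = -0.546, permutation p = 0.00217 and 0.0212, adjusted p = 0.0195 and 0.108). They were 0.659 and -0.719 without the 2 farthest animals and 0.556 and -0.680 within the 14 arrays. In neither of them did rho pass after adjustment. NLGN2 226288_s_at was in none of the 5 pairs, and against NRXN2 209982_s_at it gave r = -0.311 (rho = -0.317, permutation p = 0.208 and 0.199, adjusted p = 0.449 and 0.447). The probe sets that were both low in AD-like animals were thus not found to follow each other among animals of 1 group.

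**Figure D3:**
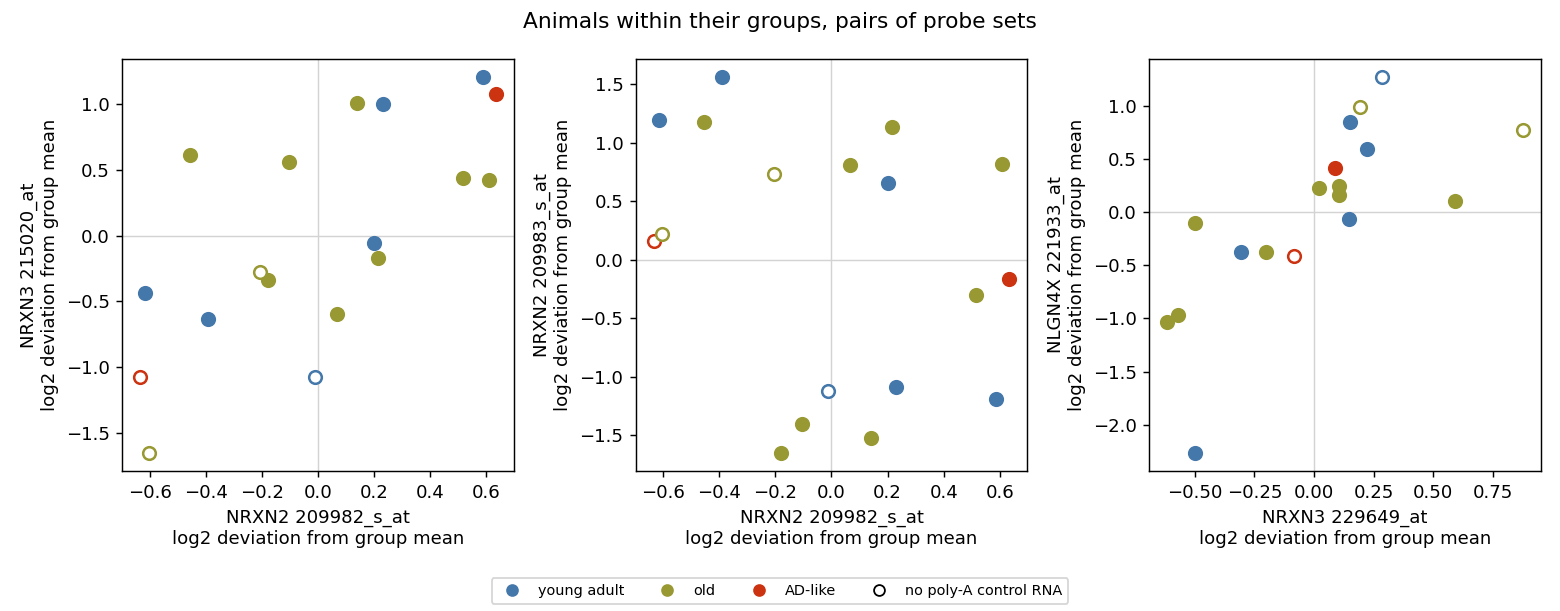
Deviations of 18 animals from their group means, on the scale of log2(signal + 16), for NRXN2 209982_s_at against NRXN3 215020_at (r = 0.680), NRXN2 209982_s_at against NRXN2 209983_s_at (r = -0.293) and NRXN3 229649_at against NLGN4X 221933_at (r = 0.735). Each point is 1 animal coloured by group, and open points are arrays without poly-A control RNA. In the middle panel the NRXN2 209983_s_at deviations of young adult and old animals split into a high and a low set.

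The probe sets of other genes most like each member, by the correlation over 18 arrays after group means, were GNG2 (0.895), TMEM53 (0.882) and CLASP1 (0.867) for NRXN2 209982_s_at, and KMT2D (0.830), SH3GL3 (0.829) and TRA2A (0.785) for NRXN3 229649_at. For NLGN1 205893_at they were EPHA1 (0.838), ANKDD1A (0.816) and SHROOM1 (0.789), and for NLGN4X 221933_at RYK (0.883), KPNA3 (0.864) and LOC101926984 (0.851). For NLGN2 226288_s_at they were IFT25 (0.827), RABGEF1P1 (0.806) and ADGRL1 (0.806). ADGRL1 encodes latrophilin 1, itself a receptor that binds neurexins. Without subtraction of the group means, so with the group differences included, the correlation with NLGN2 226288_s_at was 0.893 for ADGRL1, 0.636 for IFT25 and 0.46 for RABGEF1P1. For the genes listed with the other members it ranged from 0.569 (SHROOM1) to 0.887 (RYK). KPNA3 at 0.881 and CLASP1 at 0.879 were also near the value of ADGRL1. These values are a description of the most similar among all kept probe sets with 1 symbol.

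The genes whose proteins work with neurexins and neuroligins were set beside them, in 7 lists of 90 genes, of which 78 had a probe set and 59 were measured, each by its kept probe set with the highest mean. In old against young adult animals the old mean was above in 32 and below in 27, with a median log2 difference of 0.01 against 0.03 over all. None passed, with 0 at an adjusted p under 0.05 in limma and 0 at an unadjusted p under 0.05, where 5.92% of all kept probe sets lay. In AD-like against old animals the AD-like mean was above in 20 and below in 39, with a median of -0.22 against -0.02 over all. None passed after adjustment in limma, where 0.00671% of all did. At an unadjusted p under 0.05 it was 0 higher and 4 lower of 59, beside 1.26% higher and 3.61% lower, or 4.88% together, of all kept probe sets. Without AD-like F2 it was 0 of 59, and within the 14 arrays with poly-A control RNA, with AD-like F1 alone, 1.

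Among the extracellular partners, which bind neurexins or neuroligins in the cleft, 4 of 10 had a higher and 6 a lower AD-like mean than the old animals, and none had an unadjusted p under 0.05. NXPH2, a neurexophilin that binds neurexins, gave a signal of 308 ± 197 for young adults (SD, n = 6) and 408 ± 71.8 for old animals (SD, n = 10). Its log2 difference was 0.81 (SE 0.43), and all 10 old animals were above the young adult median. NXPH4, of the same family, had a log2 difference of -0.38 (SE 0.23) in that comparison. CBLN4, a secreted cerebellin that bridges neurexins to postsynaptic receptors, was at -1.06 (SE 0.63) in AD-like minus old animals, and LRRTM2, a postsynaptic ligand of neurexins that competes with neuroligins, at 0.69 (SE 0.50).

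The presynaptic proteins that bind the neurexin tail numbered 7, all measured. In AD-like against old animals 5 had a lower mean, and APBA1, the adaptor Mint1, was the only one with an unadjusted p under 0.05. Its signal was 93.0 ± 64.7 for AD-like (SD, n = 2) and 165 ± 33.7 for old animals (SD, n = 10). The log2 difference was -0.85 (SE 0.34, limma p = 0.0226, adjusted p = 0.959). Its paralog APBA2 was at -0.93 (SE 0.62) and CASKIN1, which binds the neurexin-bound kinase CASK, at -0.73 (SE 0.48). LIN7A, a further partner of CASK, was at 0.44 (SE 0.25) in old minus young adult animals and at -0.09 (SE 0.38) in AD-like minus old animals.

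Of 11 postsynaptic scaffolds, 7 had a lower mean in the AD-like animals. DLGAP3, which links the scaffold PSD-95 to SHANK proteins, gave a signal of 321 ± 72.1 for AD-like (SD, n = 2) and 728 ± 347 for old animals (SD, n = 10). In 9 of 10 old animals it was above both AD-like ones. The log2 difference was -1.03 (SE 0.46, limma p = 0.0358, adjusted p = 0.971). SHANK3, a scaffold tied to autism like the neurexins, was at -0.44 (SE 0.33). DLG1, a relative of PSD-95, was at 0.73 (SE 0.62).

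Of 19 genes of parallel synaptic adhesion systems, 13 had a lower mean in the AD-like animals. PTPRF, the presynaptic receptor phosphatase LAR, had the largest difference of the 59 measured partner genes. Its signal was 25.0 ± 19.2 for AD-like (SD, n = 2), 220 ± 151 for old (SD, n = 10) and 249 ± 124 for young adult animals (SD, n = 6). All 10 old animals were above both AD-like ones, a pattern of 1.62% of all kept probe sets. PTPRF was named for its small p in this comparison, so the pattern adds no support of its own. The log2 difference of AD-like minus old animals was -2.31 (SE 0.64, limma p = 0.00171, adjusted p = 0.635). CADM4, an adhesion protein of the immunoglobulin family, was at -0.45 (SE 0.32). FLRT2, which binds latrophilins, was at 0.24 (SE 0.48), and it was at -0.63 (SE 0.32) in old minus young adult animals.

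The 3 measured contactin-associated proteins, which are built much like neurexins, had lower means in the AD-like animals. CNTNAP1, which sits beside the node of Ranvier, gave a signal of 282 ± 3.55 for AD-like (SD, n = 2) and 585 ± 170 for old animals (SD, n = 10). All 10 old animals were above both AD-like ones, a pattern of 1.62% of all kept probe sets. The log2 difference was -0.96 (SE 0.40, limma p = 0.0253, adjusted p = 0.964). CNTNAP4 was at -0.77 (SE 0.44) and CNTNAP2, a large neuronal adhesion protein, at -0.09 (SE 0.45). Of the RNA-binding proteins that set which neurexin exons are kept, KHDRBS1 was at -0.04 (SE 0.37), KHDRBS2 at 0.51 (SE 0.36) and KHDRBS3 at -0.27 (SE 0.32). Of the 6 measured proteases that shed neurexins and neuroligins or process the remainder, 3 had a higher and 3 a lower AD-like mean: ADAM10, a sheddase of the cell surface, was at 0.18 (SE 0.40), PSEN2, a catalytic subunit of γ-secretase, at 0.88 (SE 0.70) and PSENEN, another subunit, at -0.29 (SE 0.38). None of these 6 had an unadjusted p under 0.05.

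**Figure D4:**
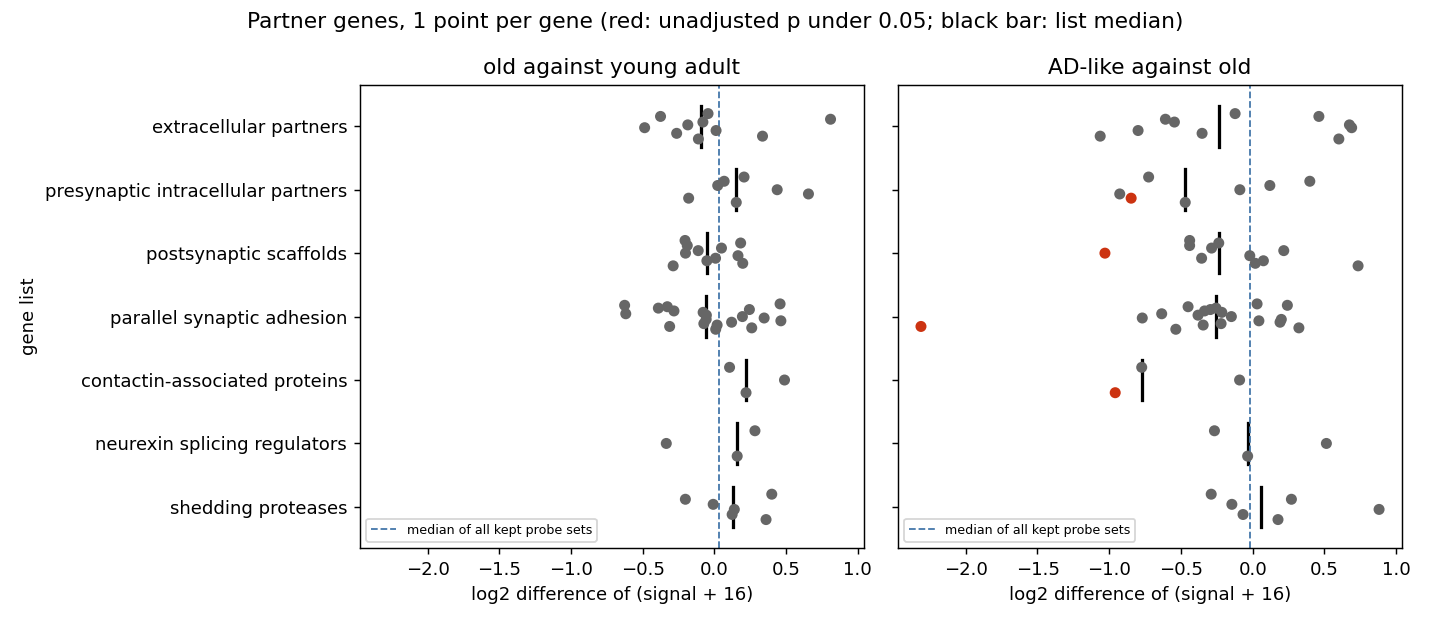
Log2 differences of (signal + 16) of the 59 measured partner genes in 7 lists, old minus young adult on the left and AD-like minus old on the right. Each point is 1 gene, black bars are list medians, the dashed line is the median of all kept probe sets, and red marks an unadjusted p under 0.05. The 4 red genes are APBA1, DLGAP3, PTPRF and CNTNAP1, all lower in AD-like animals, and none passed after adjustment.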

How the data were processed

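Temporal cortex RNA of 18 animals was read on human arrays. The intensity values deposited by the authors came from GCOS 1.2, are linear, and have the same trimmed mean of 100 on every array. Detection calls were not used here. Of 54675 probe sets 62 are controls and were dropped. The rest were ranked by their third-highest signal, and as many were kept as the methods keep by detection call (12717 with 1 symbol, 584 with several, 1610 with none). Signals were transformed to log2(signal + 16) and fitted with limma 3.58.1 in R 4.3.3, with the 3 groups as terms (and sex for male against female), with Benjamini-Hochberg adjustment across the kept probe sets. The 2 AD-like animals were taken to vary like the others. Correlations used 100000 permutations, which exchanged all 18 animals without regard to group.

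The members and the gene lists were chosen with earlier results of these data known. Members are all probe sets annotated to the 6 symbols; of each partner list the 2 genes with the smallest p in old against young adult and in AD-like against old animals are named (all genes of a list with 3). The most similar 2 arrays had a Spearman correlation of 0.778, far from identical. Same-numbered labels of different groups were not taken to pair animals, since not every correlation of their deviations was over 0.1: the 6 pairs of young adult and old animals lay between 0.057 and 0.468, and the pairs with AD-like F2 at -0.268 and -0.245. Offset, normalization, filter, variance model, sex, poly-A control RNA, RNA quality ratios, label numbers, the methods' t-test and leaving out each animal were varied. The correlations without the AD-like animals were chosen after seeing the data. The fit was tested on simulated data. Probe and protein sequences were not used here.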

Additional observations from a re-analysis of the deposited data

Results flagged for a closer look

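The gap between the lowest or the highest animal and the next was taken on the scale of log2(signal + 16) within the young adult and old groups for each of the 15 probe sets, 30 groups in all, of which chance alone would be expected to single out about 1 in 20. It stood out in 1: NLGN3 219726_at in old F5, with a signal of 11.6 against 38.3 to 98.2 in the other 9 old animals, or 4.79 against 5.76 to 6.84 on the log2 scale, where the gap was 0.476 of the whole range against a critical value of 0.466. This probe set was not kept, and the NLGN3 234751_s_at signal of old F5 was 72.3.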

How the results depend on the processing

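The number of animals and the low signals of NLGN3 limit what could be seen. For NRXN2 209982_s_at the AD-like minus old log2 difference of -1.43 stayed negative under all alternatives, between -2.06 (without AD-like F1) and -0.80 (without AD-like F2), and was -0.90 within the arrays with poly-A control RNA, where AD-like F1 is the only AD-like animal. With the label number as a replicate block it was -1.58, while the AD-like minus old differences of NRXN2 209983_s_at, NRXN3 215020_at and NRXN3 215021_s_at went to -0.11, -2.10 and -1.97; the numbers were not taken to pair animals. The t-test on linear signals with no offset gave -2.82 for NRXN2 209983_s_at.

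The count of members at an adjusted p under 0.05 in old against young adult animals was 0 under every alternative, and at an unadjusted p it ranged from 0 to 1 when 1 animal was left out. With 1 animal left out, 3.49% to 8.52% of all kept probe sets had an unadjusted p under 0.05 in that comparison. In male against female animals 1 member of 9 passed with median centring (NRXN2 209982_s_at, -0.83) and 1 with array weights (NRXN3 215020_at, -1.15), against 0. Of all kept probe sets 18.2% and 25.1% passed under these settings, so nothing particular to the members is read from this. The replicate block could not be fitted there. Of the partner genes in old against young adult animals, 0 at an unadjusted p became 1 with quantile normalization, median centring, the trend and robust variance, females only, the poly-A arrays, the poly-A block and the t-test. It became 2 with the beta-actin ratio and with array weights, 3 with the replicate block, and 0 to 3 when 1 animal was left out. Under the named settings 4.67% (females only) to 10.7% (beta-actin ratio) of all kept probe sets had an unadjusted p under 0.05. In AD-like against old animals 4 became 8 with sex as a covariate, 12 with the replicate block (1 after adjustment), 1 within the poly-A arrays, and 0 to 6 when 1 animal was left out. The causes were not tested.

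Other differences changed sign. In old against young adult animals NRXN2 209983_s_at went from 0.45 to -0.0206 with the GAPDH ratio. NRXN3 215020_at gave 0.0456 with median centring, 0.0073 with the poly-A block, 0.17 and 0.30 with the GAPDH and beta-actin ratios, and -0.25 to 0.20 when 1 animal was left out. NLGN2 1554428_s_at gave -0.0115 by the t-test and -0.13 to 0.19 when 1 animal was left out. In male against female animals NRXN3 229649_at gave -0.19 with median centring, -0.52 within the poly-A arrays, -0.31 with the poly-A block, -0.0544 with the beta-actin ratio and -0.14 to 0.25 when 1 animal was left out. NRXN3 215020_at went from -0.83 to 0.0211 with the poly-A block, and NLGN1 205893_at gave -0.0518 with median centring. NLGN2 226288_s_at gave -0.11 with median centring and -0.0504 with the beta-actin ratio, and NLGN2 1554428_s_at gave 0.015 with array weights and -0.37 to 0.0685 when 1 animal was left out. NLGN4X 221933_at gave 0.0802 with an offset of 50, 0.40 with array weights, 0.34 by the t-test and -0.42 to 0.55 when 1 animal was left out.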
